A study of Mus musculus with 8 samples.

Results

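The genes described here carry the leukaemia inhibitory factor (LIF) signal from the cell surface to Stat3 and its targets in mouse embryonic stem cells, the pluripotent cells taken from the early embryo. There are 10 members among 52338 gene rows with values, named one by one from the pathway and matched by Ensembl identifier and mouse symbol. They are the ligand Ctf1, the receptor chains Lifr and Il6st, the kinase Jak1, the transcription factor Stat3 and 5 of its targets, Socs3, Pim1, Junb, Gbx2 and Bcl3. RNA was sequenced from cells given sh-linc1393, cells given sd-linc1393, cells given dd-linc1393 and untreated wild-type control cells, with 2 libraries in each group (sh, sd, dd and control below). The study asked how linc1393, a long intergenic non-coding RNA, takes part in keeping cells pluripotent. The meaning of sd and dd is not given in the sources used here, no row was tied to linc1393, and the controls received no reagent, so the effect of linc1393 and that of giving any reagent cannot be told apart. The labels do not say whether cultures were separate for the libraries within a group, and the spread between them may be technical.

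LIF binds the receptor chain encoded by Lifr, which pairs with gp130, the signal-transducing chain encoded by Il6st. Ctf1 encodes cardiotrophin 1, a cytokine of the same family that signals through the same receptor pair. Jak kinases bound to the receptor tails phosphorylate Stat3, which enters the nucleus and activates its targets, and this route sustains self-renewal of mouse embryonic stem cells. Among the targets, Socs3 encodes an inhibitor that shuts the receptor down, Pim1 a serine/threonine kinase, Junb a subunit of the AP-1 transcription factor, Gbx2 a homeobox factor that can sustain self-renewal without LIF, and Bcl3 a nuclear cofactor of NF-kappaB.

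Stat dimers bind the palindrome TTCNNNGAA. Of the promoter windows of the 10 members in RefSeq (GRCm38.p6, 250 bases before to 50 after a gene start), the Socs3 window held this motif, with its first base 154 bases before the start, and none of the others did. Over all 32851 windows of this length, 8.3% held it, and a match is a description of letters, not of a binding site. The sequence before the Socs3 start is shown because it is the member promoter with the motif (chr11:117969367-117969616, minus strand, motif in capitals), and that before the Jak1 start because Jak1 is the member whose treated and control libraries did not overlap in any comparison (chr4:101265283-101265473, minus strand). Both run 5′ to 3′. The Socs3 stretch ends just before the RefSeq start at 117969366, which lies 180 bases before the start of the protein-coding Socs3 transcript in GENCODE. It falls inside the GENCODE span of the gene given below, since non-coding transcripts there begin as far out as 117970047. The Jak1 stretch leaves out the 59 bases next to the RefSeq start, which GENCODE places in a Jak1 untranslated region.
Socs3: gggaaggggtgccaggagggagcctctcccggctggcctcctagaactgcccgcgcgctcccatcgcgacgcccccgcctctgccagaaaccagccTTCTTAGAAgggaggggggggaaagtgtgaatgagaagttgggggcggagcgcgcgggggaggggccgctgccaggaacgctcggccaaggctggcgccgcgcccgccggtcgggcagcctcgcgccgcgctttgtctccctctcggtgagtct
Jak1: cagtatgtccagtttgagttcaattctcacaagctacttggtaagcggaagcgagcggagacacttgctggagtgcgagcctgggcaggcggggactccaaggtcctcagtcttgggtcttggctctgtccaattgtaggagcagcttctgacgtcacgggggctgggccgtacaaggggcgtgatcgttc
The Socs3 stretch is 71.6% G and C with 26 CG pairs, and the Jak1 stretch 57.6% with 10.

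Levels are FPKM, fragments scaled to gene length and library size, so they can be set side by side between genes. Reads assigned to genes, worked back from the steps between low values, ranged from 3658368 in control replicate 2 to 20387065 in dd replicate 2. Libraries stood apart by replicate number: the first principal component of all genes tested held 78.4% of the variance and placed every replicate 2 library opposite every replicate 1 library. The actin gene Actb lay at 55.3 to 76.6 FPKM in replicate 2 against 9006 to 15910 FPKM in replicate 1, and Gapdh at 37.4 to 74.9 FPKM in replicate 2 against 4.07 to 10.1 FPKM in replicate 1. Values are therefore given per library and within each number. All 8 embryonic stem cell markers checked, among them Pou5f1, Sox2 and Nanog, had at least 1 FPKM in every library, with Sox2 at 19.7 FPKM in sh replicate 2 and 177 to 372 in the others. Intervals and floors below come from read counts and cover counting error only.

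Socs3 had the highest mean of the members over the 8 libraries, at 28.2 FPKM (lowest 22.6, highest 40.1). Gbx2 followed at a mean of 10.4, Bcl3 at 9.98, Junb at 9.12, Pim1 at 7.92, Jak1 at 7.73, Stat3 at 5.78, Lifr at 4.63, Ctf1 at 2.11 and Il6st at 1.90 FPKM. Each neighbouring pair in this order overlapped over the libraries, and Gbx2 and Junb spanned the widest ranges, 0.586 to 34.8 FPKM and 1.17 to 23.7 FPKM. By this mean over all 8 libraries the ligand and the receptor chains were lowest, but the order differed by replicate number. In replicate 2 the lowest mean was that of Gbx2, at 1.25 FPKM, below Ctf1 at 1.92, Lifr at 2.13 and Il6st at 2.57. In replicate 1 Lifr, at 7.13, was above Pim1, at 4.53. As few as 15 reads lay behind a value of Ctf1 and of Gbx2, against at least 256 for Socs3.

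**Figure D1:**
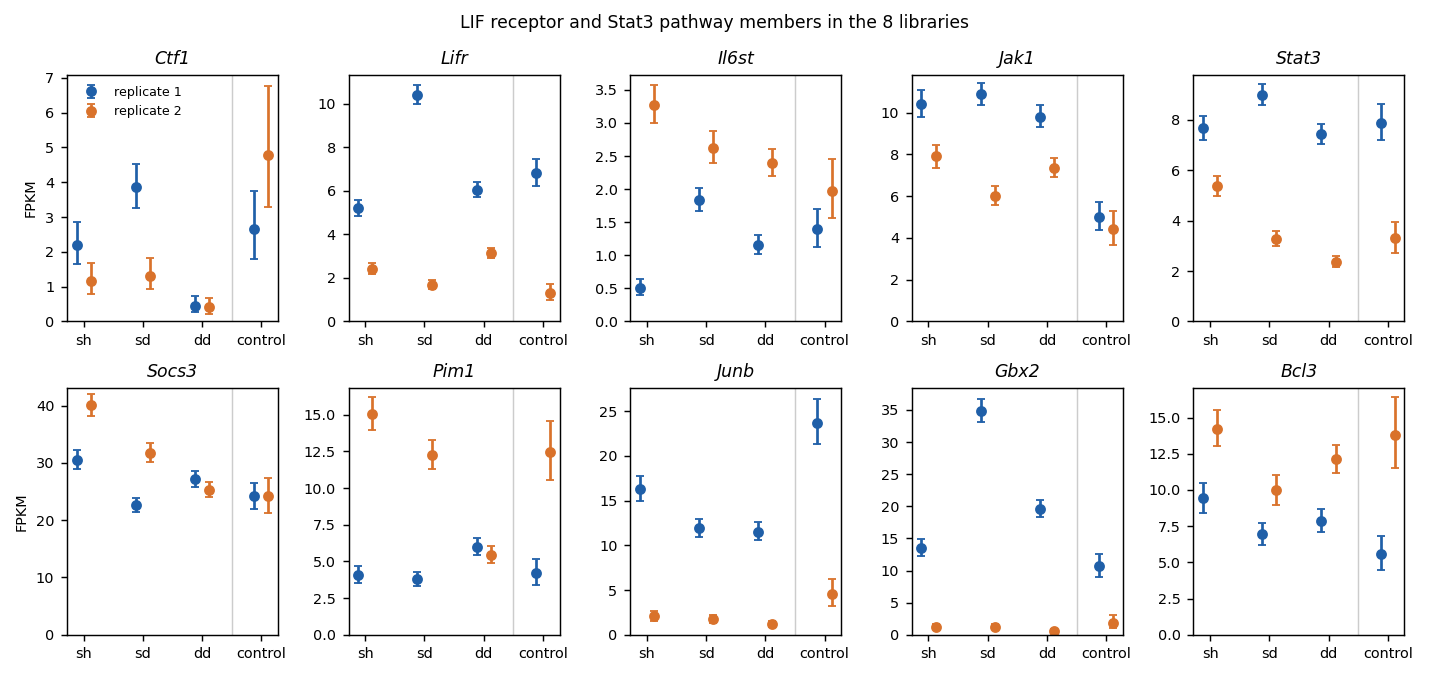
FPKM of each member (vertical axes, each from 0) in the sh, sd, dd and control groups, with 1 point per library, replicate 1 in blue and replicate 2 in orange; bars are exact 95% counting intervals. Both Jak1 points lie higher in each treated group than both control points, and Ctf1 is lowest in dd (0.458 and 0.403 FPKM). All replicate 2 points lie below all replicate 1 points for Lifr, Stat3, Junb and Gbx2, and above them for Il6st and Bcl3.

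Of the ligand, Ctf1 (ENSMUSG00000042340, chromosome 7, 127712736 to 127718192, GRCm38), the lowest levels were in dd. Ctf1 had 0.458 and 0.403 FPKM in dd replicates 1 and 2, 2.19 and 1.18 in sh, 3.85 and 1.32 in sd, and 2.65 and 4.80 in control. Both dd and both sh libraries lay below both control libraries, while sd replicate 1 lay between them. Within replicate 1 the dd level was 0.173 times that of control, and within replicate 2 it was 0.0841 times. These levels rest on 16 and 15 reads in dd and 31 and 32 in control. In dd replicate 1 the counting interval of 0.262 to 0.743 FPKM lay below that of control replicate 1, 1.80 to 3.76. The difference of dd from control in log2(FPKM + 1) was -1.68 (SE 0.60; limma adjusted p = 1, unadjusted p = 0.0286). With the replicate number as a block in the fit it was the same with SE 0.50 (adjusted p = 0.553, unadjusted p = 0.00783). The difference kept its sign in all 26 alternatives, between -2.96 and -1.07, with a smallest adjusted p of 0.142. Some of these alternatives could not turn the sign, as the dd and control libraries did not overlap. In sh the difference was -0.80 and in sd -0.45 (SE 0.60 each, adjusted p = 1). The sd difference turned positive without sd replicate 2, or under the block without control replicate 2. Ctf1 overlaps Ctf2, its neighbour on the other strand, and shares 3.08% of its 31-base stretches with other genes. Ctf2 had 0.0835 and 0.340 FPKM in dd and 0.0831 and 2.19 in control. As strand use is not stated, any reads in stretches shared by the pair could not be told apart.

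No receptor chain separated a treated group from control. Lifr (ENSMUSG00000054263, chromosome 15, 7090614 to 7197489) had 5.21 and 2.42 FPKM in sh, 10.4 and 1.67 in sd, 6.05 and 3.14 in dd, and 6.83 and 1.29 in control. All treated values lay between the control libraries except sd replicate 1, which was above both. The log2 difference from control was 0.12 in sh, 0.38 in sd and 0.35 in dd (SE 0.94 each, limma adjusted p = 1), and that in sh turned to -0.065 after median ratio scaling. The block brought the SE of each to 0.44. In replicate 2 the Lifr level was 1.87, 1.29 and 2.43 times that of control in sh, sd and dd, and in replicate 1 it was 0.764, 1.52 and 0.887 times.

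Il6st (ENSMUSG00000021756, chromosome 13, 112464070 to 112510086) had 0.512 and 3.28 FPKM in sh, 1.84 and 2.63 in sd, 1.16 and 2.39 in dd, and 1.39 and 1.97 in control. The sh libraries held both the lowest and the highest of the 8 values, on 78 and 508 reads. Within the replicate numbers sh was 0.368 and 1.66 times control, so its difference of -0.07 (SE 0.66, adjusted p = 1) averages opposite values. In sd the difference was 0.27 and in dd 0.02, the second turning to -0.093 after median ratio scaling. The block brought the SE of each Il6st difference to 0.45.

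Jak1 (ENSMUSG00000028530, chromosome 4, 101152367 to 101265282), the kinase, was the member with higher levels in every treated library. Jak1 had 10.4 and 7.90 FPKM in sh, 10.9 and 6.02 in sd, 9.81 and 7.36 in dd, and 5.03 and 4.43 in control. The lowest treated value, 6.02 FPKM in sd replicate 2, lay above the highest control value, 5.03, and its counting interval (5.57 to 6.49) overlapped that of control replicate 1 (4.40 to 5.71). Of 14561 genes tested, 3.77% had all 6 treated libraries above both control libraries and 0.728% had all 6 below. Group means were 9.17 ± 1.79 FPKM in sh, 8.45 ± 3.45 in sd, 8.59 ± 1.73 in dd and 4.73 ± 0.42 in control (SD, n = 2 each). The ratio to the control library of the same number was 2.08 and 1.79 in sh, 2.17 and 1.36 in sd, and 1.95 and 1.66 in dd. On the log2 scale the differences were 0.82, 0.68 and 0.73 (SE 0.54 each, limma adjusted p = 1; with the block SE 0.35 and adjusted p = 0.999, 0.723 and 0.553). They are not independent, since the same control libraries stand in each. No alternative turned their sign, but as the libraries did not overlap, leaving out 1 library without the block could not do so. The differences lay between 0.64 and 0.9999 in sh, 0.30 and 1.06 in sd, and 0.55 and 0.92 in dd. Over all genes the median difference was 0.15 in sh, 0.17 in sd and 0.06 in dd. Quantile normalization made these medians 0.04, 0.04 and 0.05, and median ratio scaling made them -0.01, -0.02 and -0.05. The non-coding gene Gm12785 lies within Jak1 on the same strand and Raver2 overlaps it on the other.

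Stat3 (ENSMUSG00000004040, chromosome 11, 100885098 to 100939540), the transcription factor of the pathway, overlapped between each treated group and control. It had 7.68 and 5.36 FPKM in sh, 9.0 and 3.27 in sd, 7.42 and 2.36 in dd, and 7.89 and 3.30 in control. The 4 replicate 1 values lay within 7.42 to 9.0, and replicate 2 values were lower in each group. Within replicate 1 the ratio to control was 0.974 in sh, 1.14 in sd and 0.941 in dd. Within replicate 2 it was 1.62, 0.992 and 0.716. The log2 differences were 0.26 in sh, 0.08 in sd and -0.22 in dd (SE 0.75 each, limma adjusted p = 1; SE 0.38 with the block), and that in sd turned to -0.17 after median ratio scaling. A p that misses the threshold does not show equal levels. Stat3 shares 2.36% of its stretches, mostly with Stat5a, which it overlaps on the other strand.

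Of the targets among the members, Socs3 was the most abundant, and its sh libraries held its highest levels but for sd replicate 2. Socs3 (ENSMUSG00000053113, chromosome 11, 117966079 to 117970047) had 30.5 and 40.1 FPKM in sh, 22.6 and 31.7 in sd, 27.2 and 25.3 in dd, and 24.2 and 24.2 in control. Both sh and both dd libraries lay above both control libraries, and sd replicate 1 lay below them. The sh ratio was 1.26 in replicate 1 and 1.65 in replicate 2. The sh difference was 0.52 (SE 0.56, limma adjusted p = 1; SE 0.33 and adjusted p = 0.999 with the block), and it was positive in all 27 alternatives (0.31 to 0.71). Some of these could not turn its sign, as the sh and control libraries did not overlap. The sd and dd differences, 0.14 and 0.11, turned to -0.12 and -0.052 after median ratio scaling. Socs3 overlaps no annotated gene and shares none of its 31-base stretches.

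Junb (ENSMUSG00000052837, chromosome 8, 84974484 to 84978718) had 16.3 and 2.05 FPKM in sh, 11.9 and 1.73 in sd, 11.5 and 1.17 in dd, and 23.7 and 4.51 in control. Each treated library was lower than the control library of its own number, while replicate 1 values of all groups lay above all replicate 2 values, so groups overlapped. The ratio to control was 0.688 and 0.455 in sh, 0.502 and 0.382 in sd, and 0.487 and 0.260 in dd. Without a block the log2 differences were -0.68, -0.98 and -1.16 (SE 1.39 each, limma adjusted p = 1). The block left the differences as they were and brought the SE to 0.35 (adjusted p = 0.999, 0.723 and 0.553; unadjusted p = 0.0791, 0.0195 and 0.00824). Unblocked fits without sh, sd or dd replicate 2 turned them to 0.57, 0.14 and 0.10, since unequal replicate numbers then stood against each other, as did leaving out control replicate 1 in sh and sd (0.40 and 0.10). Junb shares 6.51% of its stretches, mostly with Prdx2, which overlaps it on the other strand. Prdx2 had 16.7 and 43.2 FPKM in sh, 31.5 and 48.8 in sd, 19.3 and 44.0 in dd, and 13.4 and 44.9 in control, and its part in the Junb values was not tested.

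Gbx2 (ENSMUSG00000034486, chromosome 1, 89927956 to 89931179) had 13.5 and 1.25 FPKM in sh, 34.8 and 1.29 in sd, 19.6 and 0.586 in dd, and 10.7 and 1.88 in control. Its treated libraries lay above control within replicate 1 and below it within replicate 2. In sd the ratio to control was 3.27 in replicate 1, on 1543 reads against 149, and 0.683 in replicate 2, on 43 reads against 15. The fitted differences were -0.02, 0.64 and -0.02 (SE 1.82 each, limma adjusted p = 1; SE 0.5 with the block), and whether the replicate numbers differ in this was not tested. Without sd replicate 1 the sd difference was -1.34, and without sd replicate 2 it was 2.63. Gbx2 shares 42.7% of its stretches, mostly with D130058E05Rik, a gene that overlaps it on the other strand and had 0.214 to 1.48 FPKM over the 8 libraries.

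Pim1 (ENSMUSG00000024014, chromosome 17, 29490753 to 29496112) had 4.09 and 15.1 FPKM in sh, 3.80 and 12.3 in sd, 5.99 and 5.46 in dd, and 4.22 and 12.4 in control. The dd replicate 2 library was low beside the other replicate 2 libraries, at 0.439 times control (374 reads). The dd difference was -0.32 (SE 0.86, limma adjusted p = 1; SE 0.47 with the block), with 0.42 within replicate 1 and -1.06 within replicate 2. Pim1 shares 11.5% of its stretches, mostly with Gm26885 on the other strand.

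Bcl3 (ENSMUSG00000053175, chromosome 7, 19808462 to 19822770) had 9.41 and 14.2 FPKM in sh, 6.93 and 9.97 in sd, 7.84 and 12.1 in dd, and 5.54 and 13.8 in control. Every treated library lay between the control libraries except sh replicate 2, which was above both. The log2 differences were 0.36, -0.08 and 0.13 (SE 0.64 each, limma adjusted p = 1; SE 0.36 with the block), and the dd value turned to -0.012 after median ratio scaling.

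**Figure D2:**
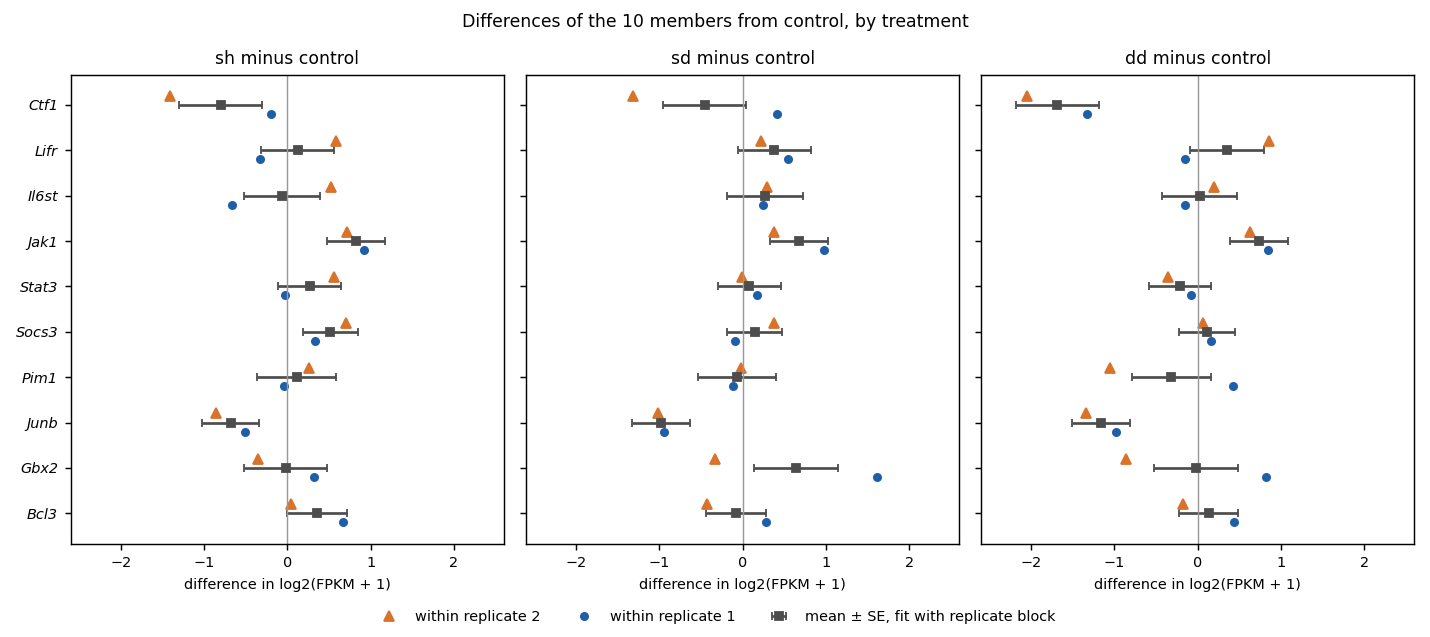
Difference from control in log2(FPKM + 1) (horizontal axes) for each member, by treatment; circles and triangles are differences within replicates 1 and 2, and squares with bars are the mean ± SE of the fit with the replicate block. Jak1 lies right of 0 and Junb left of 0 in both replicate numbers of each treatment, Ctf1 has its lowest values in dd, and Gbx2 lies on opposite sides in the replicate numbers.

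All 10 members passed the filter of a mean of at least 1 FPKM, and 0 of 10 were called in sh, sd or dd against control by limma at an adjusted p under 0.05. The background was the same, with 0% of 14561 genes called in each of these comparisons, with and without the block, in the F test over all treatments and between treatments. In the F test the smallest unadjusted p among members was 0.124, for Ctf1, without the block, and with it 0.0367 for Junb and 0.0421 for Ctf1 (limma adjusted p = 0.972 each). In sh, 0 members had an unadjusted p under 0.05 (0.22% of all genes), and with the block 1 did, Jak1 (3.3% of all genes). In sd it was 0 members (0.343%), and with the block 1, Junb (6.49%). In dd it was 1 member, Ctf1 (0.57%), and with the block 2, Ctf1 and Junb (9%). With voom weights on recovered reads 0 of 14549 genes were called in any of these comparisons, with or without the block.

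The count of members outside the control range can be read beside the same count over all genes. In sh, Jak1 and Socs3 had both libraries above both controls (8.4% of genes did) and Ctf1 had both below (2.13%). In sd, Jak1 alone was above (11.1%) and no member below (2.69%). In dd, Jak1 and Socs3 were above (11.2%) and Ctf1 below (4.72%). The median difference of the 10 members was 0.12 in sh, 0.11 in sd and 0.00 in dd, close to the medians of all genes given above.

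Between the replicate numbers 6 of the 10 members were called, in both directions. Members lower in replicate 2 than in replicate 1 were Gbx2, Junb, Lifr and Stat3, and those higher were Pim1 and Bcl3. Gbx2 reached 0.586 to 1.88 FPKM over the 4 libraries of replicate 2, against 10.7 to 34.8 over those of replicate 1 (log2 difference -3.09, SE 0.35, limma adjusted p = 1e-04). Junb had 1.17 to 4.51 against 11.5 to 23.7 FPKM (-2.36, SE 0.24, adjusted p = 5.63e-05). Every replicate 1 library exceeded every replicate 2 library for both genes. Lifr had 1.29 to 3.14 FPKM in replicate 2 and 5.21 to 10.4 in replicate 1 (-1.37, SE 0.31, adjusted p = 0.0045). Stat3 had 2.36 to 5.36 FPKM in replicate 2 and 7.42 to 9.0 in replicate 1 (-1.01, SE 0.27, adjusted p = 0.00934). Both these calls ended with no filter on low genes (adjusted p = 0.062 for Lifr and 0.0504 for Stat3). The Stat3 call was also lost without either sd library (difference -0.94, adjusted p = 0.0554 and 0.0522).

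On the higher side, Pim1 had 5.46 to 15.1 FPKM in replicate 2 and 3.80 to 5.99 in replicate 1 (1.09, SE 0.33, limma adjusted p = 0.0184), overlapping through dd. Bcl3 had 9.97 to 14.2 FPKM in replicate 2 and 5.54 to 9.41 in replicate 1 (0.69, SE 0.25, adjusted p = 0.0386). Both calls ended with no filter (adjusted p = 0.116 and 0.0856), under quantile normalization (differences 0.60 and 0.19) and under median ratio scaling (0.58 and 0.16), and that of Bcl3 also with voom (0.66, adjusted p = 0.0628) and on leaving out any 1 library. The Pim1 call ended on leaving out any control, sh or sd library (adjusted p = 0.0669 to 0.0955). Il6st had 1.97 to 3.28 FPKM in replicate 2 and 0.512 to 1.84 in replicate 1, so the libraries did not overlap, but its difference of 0.71 had an adjusted p of 0.0832 and turned to -0.10 after quantile normalization, while voom called it higher (1.12, adjusted p = 0.0192). Jak1, Ctf1 and Socs3 were not called (adjusted p = 0.175, 0.554 and 0.507), though Jak1 was called lower under both scalings (-0.94 and -0.92) and Ctf1 after quantile normalization (-0.98).

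These counts have a high background. Of 14561 genes, 61.3% were called between the replicate numbers, 46.6% higher and 14.6% lower in replicate 2, against 2 and 4 of the 10 members. All 4 replicate 2 libraries lay above all 4 replicate 1 libraries for 41.9% of genes (members Il6st and Bcl3) and below for 14.2% (Gbx2, Junb, Lifr and Stat3). The median difference was -0.33 for the members and 0.73 for all genes. Under quantile normalization it was -0.96 for the members and 0.03 for all genes, and under median ratio scaling -0.76 for the members and 0.30 for all genes. Some cell markers also separated by replicate number. Of the stem cell markers, Dppa5a had 5866 to 8584 FPKM in replicate 2 and 292 to 557 in replicate 1, and the 8 together summed to 6862 to 9968 FPKM in replicate 2 and 1320 to 1744 in replicate 1. Without Dppa5a the other 7 summed to 996 to 1642 FPKM in replicate 2 and 951 to 1253 in replicate 1, which overlap. Of these 7, Tdgf1 (297 to 626 against 167 to 255) and Esrrb (31.4 to 48.4 against 16.5 to 30.2) were higher in replicate 2. Zfp42 was lower in replicate 2 (132 to 273 against 293 to 372), and Nanog, Pou5f1, Sox2 and Utf1 overlapped. The 6 primitive endoderm markers summed to 1.49 to 7.74 FPKM in replicate 2 and 21.5 to 35.6 in replicate 1. Among them Gata4 was higher in replicate 2 in control (2.73 against 0.958) and sh (1.34 against 0.988), and lower in sd and dd. The 9 fibroblast feeder markers summed to 2.44 to 9.34 FPKM in replicate 2 and 0.720 to 1.39 in replicate 1, with none of them at 0 in replicate 2 libraries and 4 to 7 at 0 in each replicate 1 library. Of these, Fbn1 was lower in replicate 2 in sd and dd. The 6 trophoblast markers summed to 14.3 to 20.3 FPKM in replicate 2 and 9.58 to 13.3 in replicate 1. Most of each sum was Tfap2c, at 9.21 to 15.1 FPKM in replicate 2 and 5.25 to 10.7 in replicate 1, which overlap. Cdx2, Elf5 and Krt7 were higher in replicate 2 in each group, while Eomes was lower in control, sd and dd. The part of these cell markers in the pathway values was not tested. Fewer cells of a type cannot be told apart from less RNA per cell in bulk samples. The replicate number may stand for a batch, a culture or anything else the labels do not state.

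**Figure D3:**
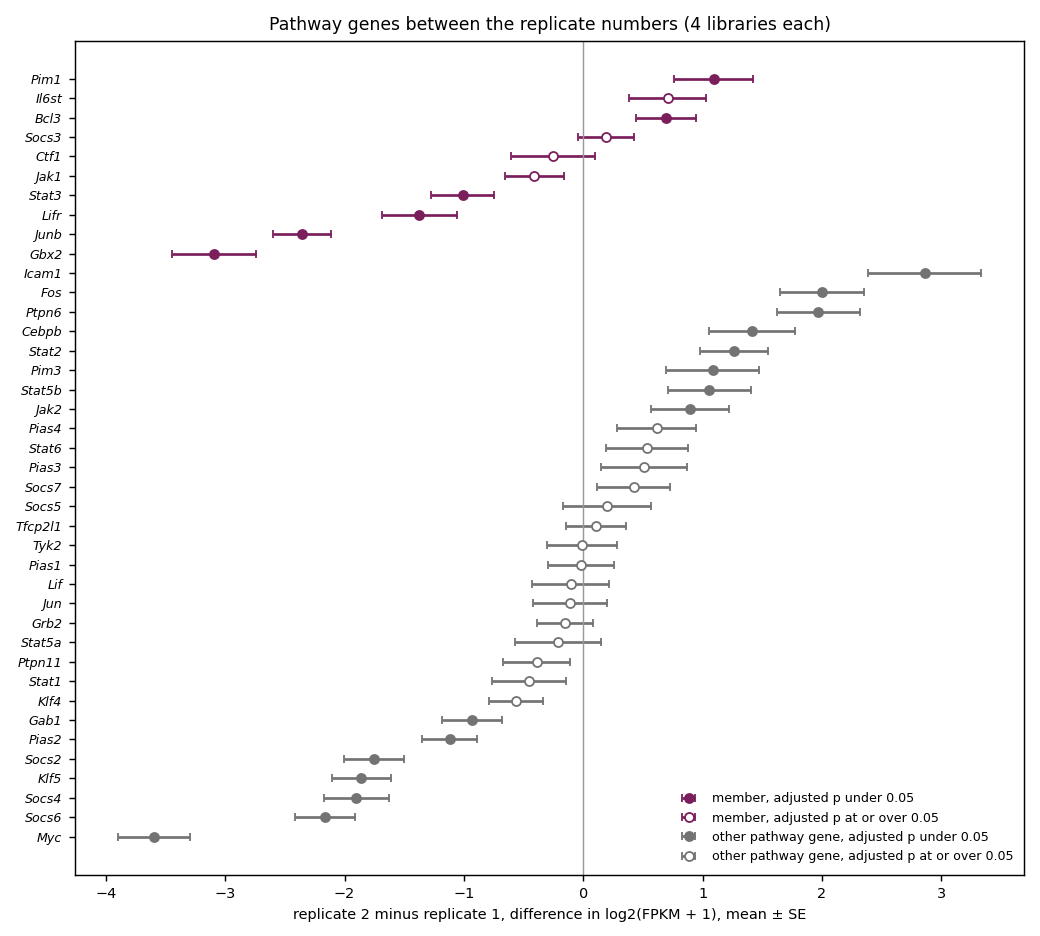
Difference of replicate 2 from replicate 1 in log2(FPKM + 1), mean ± SE from the fit with group as a term (horizontal axis), for the 10 members (purple, upper rows) and the 30 other pathway genes above the filter (grey); filled points have a limma adjusted p under 0.05. Genes of the pathway lie on both sides, from Myc at -3.60 to Icam1 at 2.86.

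Of 46 other pathway genes, 30 passed the filter: 1 of 7 ligands, 0 of 5 receptors, 2 of 3 kinases, 5 of 6 Stat family genes, 13 of 15 inhibitors and adaptors and 9 of 10 further targets. None was called in sh, sd or dd against control, where 23, 19 and 13 of the 30 had a positive difference (76.7%, 63.3% and 43.3%), beside 65.5%, 62.9% and 53.6% of all genes tested. Lif, the ligand itself, had 0.803 and 1.38 FPKM in sh, 1.85 and 1.35 in sd, 0.816 and 0.609 in dd, and 1.43 and 0.880 in control, on 14 to 164 reads. The receptor with the highest mean, Cntfr, had 0.318 to 2.26 FPKM over the 8 libraries. Tyk2, another Jak family kinase, had 1.27 to 3.39 FPKM, and Stat6 had 2.55 to 8.94.

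The most abundant genes of the list were the following. Pias2, of a family that restrains Stat proteins, had 57.3 and 32.0 FPKM in sh, 84.2 and 29.6 in sd, 87.3 and 44.8 in dd, and 48.2 and 20.0 in control. Its dd difference was 0.99 (SE 0.84, limma adjusted p = 1; adjusted p = 0.553 with the block). Klf4, a Stat3 target and pluripotency factor, had 98.1 and 73.8 FPKM in sh, 106 and 72.6 in sd, 109 and 87.4 in dd, and 105 and 52.3 in control. Its differences were 0.19, 0.24 and 0.39 (SE 0.68 each, adjusted p = 1).

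Between the replicate numbers, 8 of these 30 genes were called higher in replicate 2 and 7 lower, beside the background of 46.6% and 14.6%. Those higher were Icam1, Fos, Ptpn6, Cebpb, Stat2, Pim3, Stat5b and Jak2, and those lower were Myc, Socs6, Socs4, Klf5, Socs2, Pias2 and Gab1. Pias2 differed by -1.12 (SE 0.23, limma adjusted p = 0.00285) and Klf4 by -0.56 (SE 0.22, adjusted p = 0.0526). Myc, at -3.60 (SE 0.30, adjusted p = 1.88e-05), and Icam1, at 2.86 (SE 0.47, adjusted p = 8.56e-04), were chosen after their values were seen, as the ends of this list.

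Genes with the pattern most like a member over the 8 libraries were sought among 9694 tested genes with an official symbol, by Pearson correlation of log2(FPKM + 1), given as a description because the points share the split by replicate number. For Stat3 they were Shc1 (0.997), Mcm5 (0.984) and Adam22 (0.981). For Lifr they were Casc3 (0.996), Rbpj (0.989) and Ccnt2 (0.988). For Socs3, which did not follow the split, they were Nub1 (0.943), Tex19.1 (0.923) and Zbtb8a (0.906). Shc1 had 11.2 and 6.999 FPKM in sh, 13.2 and 4.62 in sd, 10.6 and 3.50 in dd, and 11.8 and 4.79 in control.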

How the data were processed

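The authors deposited 1 table with FPKM per gene and library, per the file headers. CASAVA 1.4, HISAT2 and the mm10 build come from the submitters' processing notes, while no source used here gives the counting program, annotation, FPKM formula or strand use. Of 58420 gene rows, 6082 had no values. Of the 52338 left, 52081 matched GENCODE M21 (GRCm38, as mm10), which gave symbols, coordinates and union exon lengths. Deposited FPKM times length gave whole reads within 0.02 for 98.3% to 98.9% of values under 100 reads, and hence counts, totals, exact 95% intervals and floors of 3 reads. For Ctf1, 3 reads are worth 0.0807 to 0.450 FPKM.

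Differences were tested with limma 3.58.1 (R 4.3.3, eBayes with trend) on log2(FPKM + 1) in 14561 genes at a mean of at least 1 FPKM, all 4 groups in 1 fit (4 residual degrees of freedom), two-sided, with Benjamini-Hochberg adjustment over all genes at 0.05. The scale understates changes of low genes. Replicate 2 was compared with replicate 1 with group as a term. Same-numbered libraries deviated together from their group means (correlations 0.75 to 0.893 over genes in all 6 pairs of groups), a pairing drawn from the data. Fits blocked on that number, which leave 3 residual degrees of freedom, therefore stand beside the differences of the members from control. Alternatives were other pseudocounts, filters and scalings, robust moderation, fewer groups, voom on recovered reads and leaving out libraries. Members and lists were chosen with earlier results of these data known. Named genes are the members, the most abundant other pathway gene of each role, and the 3 genes most like Stat3, Socs3 and Lifr. Genes named by their calls, or because they overlap a member, lie outside that rule, and their values were known when they were picked. Receptor protein motifs, also planned, were not analysed here.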

Additional observations from a re-analysis of the deposited data

How the results depend on the processing

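None of the 30 differences of the members from control was called in any of 801 alternatives, and 84 of those gave the other sign, in 23 of the 30. The 7 with 1 sign throughout were Jak1 in sh, sd and dd, Ctf1 in sh and dd, Il6st in sd and Socs3 in sh. Some alternatives leave a difference from control as it is. These are the filters, robust moderation, fewer groups, the block without voom, and leaving out a library of a group not compared. So 84 of 801 does not give the share among settings that could move a difference. The replicate block called 0 genes in sh, sd and dd, as without it, and changed no call.

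Values with the other sign were as follows. Median ratio scaling gave Lifr -0.065 and Pim1 -0.080 in sh, Socs3 -0.12 and Stat3 -0.17 in sd, and Bcl3 -0.012, Il6st -0.093 and Socs3 -0.052 in dd. Between replicate numbers it gave Socs3 -0.38. Quantile normalization gave Pim1 -0.046 in sh, Socs3 -0.039 and Stat3 -0.022 in sd, and Gbx2 0.12 in dd. Between replicate numbers it gave Il6st -0.10 and Socs3 -0.35. With voom, Lifr was -0.011 in sh, and Bcl3 0.075, Pim1 0.077 and Stat3 -0.032 in sd. With voom and the block, Gbx2 was 0.19 and Lifr -0.051 in sh, and Gbx2 0.52 in dd. The cause was not tested.

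Leaving out 1 library, with or without the block, gave these ranges. In sh, Bcl3 lay between -0.23 and 0.94, Gbx2 -1.37 and 1.32, Il6st -0.82 and 0.68, Junb -1.94 and 0.57, Lifr -0.76 and 1.01, Pim1 -0.72 and 0.94, and Stat3 -0.26 and 0.79. In sd, Bcl3 lay between -0.67 and 0.51, Ctf1 -1.07 and 0.16, Gbx2 -1.34 and 2.63, Junb -2.10 and 0.14, Lifr -0.66 and 1.43, Pim1 -0.80 and 0.66, Socs3 -0.093 and 0.38, and Stat3 -0.53 and 0.69. In dd, Bcl3 lay between -0.46 and 0.72, Gbx2 -1.87 and 1.83, Il6st -0.31 and 0.35, Junb -2.43 and 0.10, Lifr -0.53 and 1.24, Pim1 -1.12 and 0.49, Socs3 -0.081 and 0.31, and Stat3 -0.88 and 0.45. Between replicate numbers Ctf1 lay between -0.56 and 0.020. Genes called then ranged from 0 to 102 in sh, 0 to 149 in sd and 0 to 167 in dd. The highest counts were with the block and without control replicate 1, and no member was among them. Between replicate numbers 8920 of 14561 genes tested were called, 5394 of 52338 without a filter and 5368 of 7503 at a mean of at least 5 FPKM.

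The control libraries were the shallowest, and control replicate 2 held 15 reads of Gbx2, 32 of Ctf1 and 38 of Junb, which limits the ratios of those genes.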
